A study of Homo sapiens with 24 samples.

Results

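The SLFN family members SLFN5, SLFN11, SLFN12 and SLFN13 were followed across 24 RNA sequencing libraries of 2 human neuroblastoma cell lines in which the level of NDUFS6 had been altered. The 4 genes were taken by symbol from a table of 60564 gene rows. The genes were chosen by measured values: SLFN11 was picked for its fall in the SK-N-BE(2) knockdown in earlier results of these data, and the other 3 as members of its family. For that reason every comparison that uses the SK-N-BE(2) knockdown libraries or their own control libraries is given for the 4 genes as a description, with no test. The remaining comparisons are tested where the values allow it.

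The schlafen (SLFN) genes of humans are interferon-inducible genes that share a core domain related to RNA-cleaving enzymes. SLFN11 protein binds replication protein A on stressed replication forks, blocks their progress and cleaves particular transfer RNAs, and its loss is known to make tumour cells less sensitive to topoisomerase poisons, platinum compounds and PARP inhibitors. SLFN13 is an endonuclease for transfer and ribosomal RNA, SLFN12 is an RNase that is switched on when PDE3A inhibitors of one kind fasten it to PDE3A, and SLFN5 is an interferon-regulated nuclear protein. In other tumours, DNA methylation of the promoter and the histone methyltransferase EZH2 are known to silence SLFN11, and the ETS factor FLI1 is known to drive it.

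Of the lines, SK-N-BE(2) is known for its MYCN amplification and SH-SY5Y for a single-copy MYCN. In each line 3 libraries came from cells with a lentiviral short hairpin RNA against NDUFS6 (knockdown), 3 from cells with the empty vector of the knockdown (knockdown control), 3 from cells with a lentiviral NDUFS6 coding sequence (overexpression) and 3 from cells with the empty vector of the overexpression (overexpression control). Cells of all 8 groups carried a lentiviral vector, had been kept under puromycin for about a week and grew in the same medium with serum, and the labels name neither an interferon nor a DNA-damaging drug. NDUFS6 is an accessory subunit of mitochondrial complex I. Libraries of a group are biological replicates by their labels, which do not say whether each had its own infection, so a p-value here measures only how much such libraries vary, and part of that may be technical.

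Values were FPKM, fragments scaled by transcript length and by the fragments mapped in the library, so levels of different genes can be set side by side. The sum over all genes ranged from 249708 to 276091 FPKM over the libraries, in which 12607 to 14018 genes were at 1 FPKM or more. The number of reads is unknown, and a gene listed at 0 may hold fewer fragments than the sequencing could show. NDUFS6 lay between 1.09 and 1.61 FPKM in SK-N-BE(2) knockdown and between 9.29 and 12.2 FPKM in its control, and between 3.11 and 4.98 FPKM in SH-SY5Y knockdown and between 11.1 and 12.1 FPKM in its control. With overexpression it lay between 14.9 and 19.0 FPKM in SK-N-BE(2), against 11.8 to 13.9 FPKM in the control, and between 199 and 214 FPKM in SH-SY5Y, against 10.2 to 11.5 FPKM in the control. Of 8 neuroblastoma markers, 7 reached 1 FPKM in all 24 libraries, and TH did so in 12. None of 5 immune markers and none of 4 endothelial markers reached 1 FPKM in any library, the highest value being 0.786 FPKM for CD14. In bulk RNA fewer cells that express a gene and less RNA per cell cannot be told apart.

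The 4 genes lie on chromosome 17 in a cluster of 6 SLFN genes that spans 315.1 kb (hg38, GENCODE 29). SLFN5 (ENSG00000166750, chr17:35243036-35273655) is on the plus strand. SLFN11 (ENSG00000172716, chr17:35350305-35373701), SLFN12 (ENSG00000172123, chr17:35411060-35433283) and SLFN13 (ENSG00000154760, chr17:35435096-35448837) are on the minus strand, followed by SLFN12L and SLFN14. No exon of the 4 genes overlaps an exon of another gene on either strand. RefSeq promoter entries (build GRCh38.p14) matched 2 of the 4 genes, SLFN11 and SLFN12.

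The 250 bases before the RefSeq start site of SLFN11 (chr17:35373622-35373871, minus strand) and of SLFN12 (chr17:35433175-35433424, minus strand) are shown because one gene was read in SK-N-BE(2) alone above 0.1 FPKM and the other in SH-SY5Y alone, and because methylation at the CpG positions of the SLFN11 promoter is one known means of its silencing. Both are written 5' to 3', with every CpG dinucleotide in capitals.
SLFN11: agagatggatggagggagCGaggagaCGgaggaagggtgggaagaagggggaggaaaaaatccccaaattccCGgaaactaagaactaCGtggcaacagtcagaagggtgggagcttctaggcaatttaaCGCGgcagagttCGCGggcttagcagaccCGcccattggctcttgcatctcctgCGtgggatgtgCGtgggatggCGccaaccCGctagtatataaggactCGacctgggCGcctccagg
SLFN12: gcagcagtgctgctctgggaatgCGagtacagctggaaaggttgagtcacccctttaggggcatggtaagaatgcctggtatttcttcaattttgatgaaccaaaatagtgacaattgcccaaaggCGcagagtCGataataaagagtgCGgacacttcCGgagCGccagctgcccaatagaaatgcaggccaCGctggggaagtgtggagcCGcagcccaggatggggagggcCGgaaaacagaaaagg
The SLFN11 window holds 15 CpG dinucleotides at a GC content of 57.6% (observed over expected 0.77), and 57.1% of 35114 promoter windows of the same length hold fewer. The SLFN12 window holds 9 at a GC content of 53.2% (observed over expected 0.53), and 45.9% of windows hold fewer. The median window holds 11. Methylation was not measured in these libraries.

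Motifs were looked for on both strands of these windows. The interferon-stimulated response element, searched as TTTC, any 2 bases and TTTC, was in neither window and in 3.0% of all windows. The STAT site TTCNNNGAA, found in 6.6% of windows, was in the SLFN11 window at position -182 from the start site and overlapped the ETS core CCGGAA at -179. The ETS core, found in 14.5% of windows, was in the SLFN12 window at -94 and -17. The SP1 box GGGCGG, found in 42.6% of windows, was in the SLFN11 window at -92. The E-box CACGTG (6.3% of windows) and the stress response element TGATGNAA (3.1%) were in neither. A match is a description of letters and not of binding.

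SLFN11 was the most abundant of the 4 genes and was read in SK-N-BE(2) cells. In that line it had 1.52, 1.03 and 1.39 FPKM in the knockdown libraries, against 10.6, 10.4 and 10.3 FPKM in the knockdown control libraries. It had 3.17, 2.28 and 2.29 FPKM in the overexpression libraries, against 4.31, 3.67 and 4.29 FPKM in the overexpression control libraries. The 4 groups did not overlap, and their means ran from 1.31 ± 0.253 in knockdown over 2.58 ± 0.510 in overexpression and 4.09 ± 0.367 in the overexpression control to 10.4 ± 0.147 FPKM in the knockdown control (SD, n = 3 each). Every neighbouring pair in that order was separate in its libraries. Set among the 15903 tested genes of the same group, SLFN11 stood above 25.2% of genes in knockdown and 76.9% in the knockdown control, and above 40.3% in overexpression and 50.7% in the overexpression control.

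In SH-SY5Y cells SLFN11 was listed at 0 in 10 of 12 libraries. The exceptions were 1 knockdown control library at 0.0375 FPKM and 1 overexpression library at 0.0103 FPKM. SLFN11 passed the filter on low values through the 12 SK-N-BE(2) libraries alone, so the difference between the lines is a description with no test. In the overexpression controls SK-N-BE(2) was above SH-SY5Y by 2.35 on the log2(FPKM + 1) scale, in a comparison that called 70.1% of all tested genes. Between the knockdown controls the difference was 3.50, with 70.5% of genes called. No fold is given, since the SH-SY5Y groups were at or near 0.

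**Figure D1:**
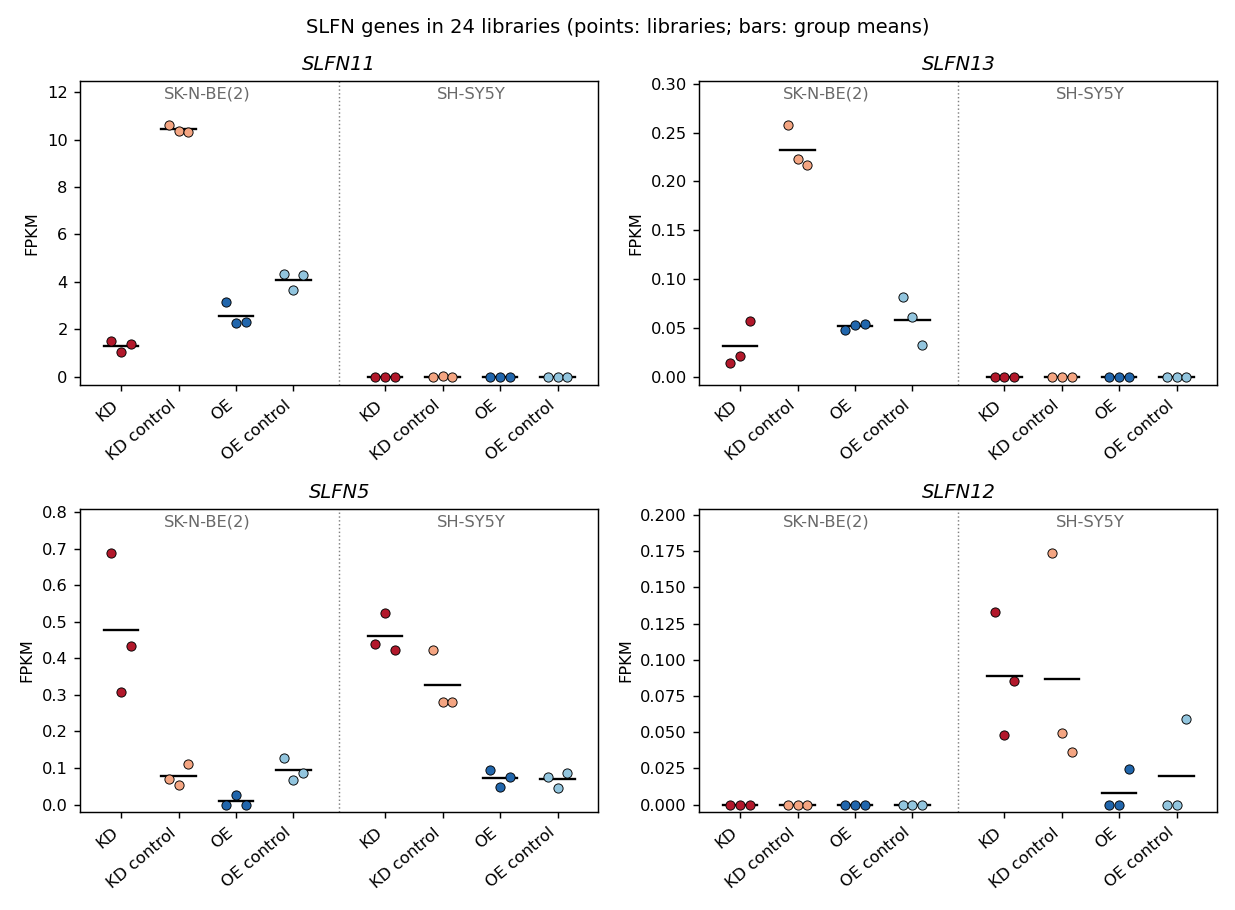
FPKM of the 4 SLFN genes in each library (points) with group means (bars), on a linear axis of its own for each gene, for knockdown (KD) and overexpression (OE) of NDUFS6 and their empty vector controls. SLFN11 and SLFN13 have values above 0.1 FPKM in SK-N-BE(2) alone, SLFN12 is above 0 in SH-SY5Y alone, and SLFN5 is highest in the knockdown groups of both lines.

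Against both empty vectors of SK-N-BE(2), SLFN11 was lower with knockdown and lower with overexpression. With knockdown the mean was 7.96-fold lower than in the knockdown control, a difference of -2.31 on the log2(FPKM + 1) scale (SE 0.0842), and 7 of 15903 tested genes had a larger fall. Against the overexpression control it was 3.12-fold lower (-1.14), and 95 genes had a larger fall. These comparisons called 55.7% and 47.7% of all tested genes, with 28.3% and 25.2% of all tested genes called lower. Of the calls against the knockdown control 49.3% were higher, and 60.8% with scaling to a fixed sum per library. Since the first of them picked the gene, these values describe it and support nothing.

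With overexpression SLFN11 fell against its own control to 2.58 ± 0.510 FPKM, against 4.09 ± 0.367 FPKM in the overexpression control (SD, n = 3 each). The difference was -0.51 on the log2(FPKM + 1) scale (SE 0.0842, 95% confidence interval -0.69 to -0.34 on 16 degrees of freedom, adjusted p = 0.000204), a 1.58-fold lower mean, with all 3 overexpression libraries below all 3 control libraries. In this comparison 29.7% of all tested genes were called, 16.8% lower (43.4% of the calls were higher, and 32.7% with scaling to a fixed sum), and 366 genes had a larger fall than SLFN11. The SE, interval and p rest on a spread pooled over all 8 groups. SLFN11 was at or near 0 in the SH-SY5Y groups, which add little spread, so these values may be too tight for SK-N-BE(2). The call was lost when the model held the overexpression group and its control alone, with the same difference and an adjusted p of 0.0526. Over all 12 alternative settings the difference lay between -0.68 and -0.46 and the adjusted p between 9.26e-06 and 0.0526. Against the knockdown control the overexpression mean was 4.04-fold lower (-1.68), and 10 genes had a larger fall among 40.3% called.

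The 2 empty vectors of SK-N-BE(2) stood apart in SLFN11 themselves. The knockdown control was 2.55-fold above the overexpression control, a difference of 1.17 on the log2(FPKM + 1) scale, and 34.5% of all tested genes were called between these controls. The size of the knockdown difference therefore depended on which control was used, and its direction did not. Leaving out each library in turn left the knockdown difference between -2.38 and -2.22 against the knockdown control and between -1.21 and -1.05 against the overexpression control.

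**Figure D2:**
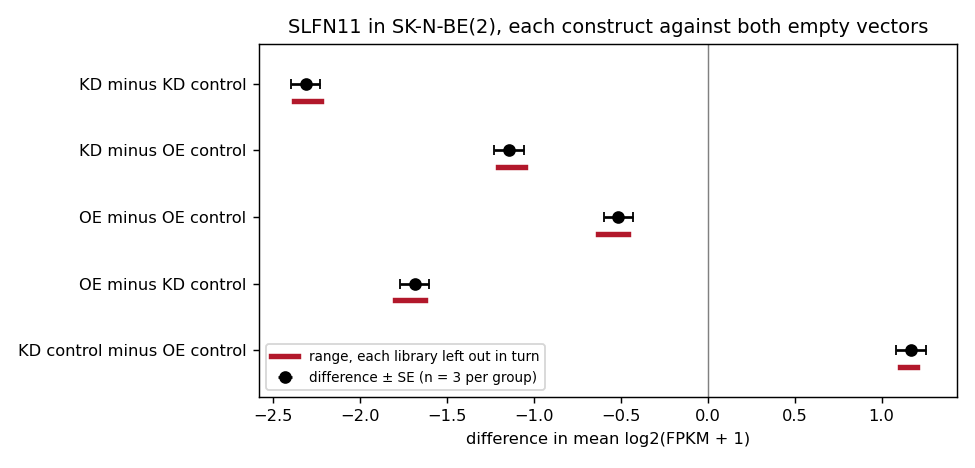
Differences of SLFN11 in SK-N-BE(2) between NDUFS6 knockdown (KD) or overexpression (OE) and both empty vector controls, and between the controls, in mean log2(FPKM + 1). Points are differences with their standard errors (n = 3 per group, spread pooled over all 8 groups). Red bars are the ranges when each library is left out in turn. All 4 differences of a construct lie below 0, from -2.31 to -0.51, and the difference between the controls is 1.17.

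Whether the SLFN11 response differed between the lines could not be tested, since SLFN11 was at or near 0 in SH-SY5Y and had no room to fall. The overexpression difference in SH-SY5Y was 0.00 on the log2(FPKM + 1) scale against the own control (32.6% of all tested genes called) and -0.01 against the knockdown control (55.4% called). The knockdown difference there was -0.02 against the own control (56% called), and the controls differed by 0.02 (36.2% called). SH-SY5Y knockdown and overexpression control were both listed at 0 in every library, in a comparison that called 58.2% of genes. The differences between the lines were -0.52 for overexpression and -2.29 for knockdown, each against the own control, and restate the SK-N-BE(2) values. These comparisons called 36.8% and 55.8% of all tested genes.

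Cell identity markers moved in the same libraries. The 8 neuroblastoma markers summed to 344 to 448 FPKM in SK-N-BE(2) knockdown, against 679 to 697 FPKM in its control. Of the 8, 7 were called lower, against 28.3% of all tested genes. The sums were 873 to 1033 FPKM in SK-N-BE(2) overexpression and 911 to 1000 FPKM in its control, where SLFN11 also differed. There 3 of the 8 markers were called higher and 2 lower, against 12.9% and 16.8% of all tested genes. GATA3, HAND2 and PHOX2A were higher (0.24, 0.24 and 0.27, adjusted p = 0.00246, 0.0155 and 0.0365). CHGA and DBH, the enzyme that makes noradrenaline, were lower (-0.26 and -0.41, adjusted p = 0.0434 and 0.000418). The knockdown control differed from the overexpression control by 0.56 in HAND2, -1.36 in CHGA and -1.82 in DBH, so the direction of these 3 genes depended on the control. In PHOX2A the knockdown control was the lower one (-0.25), so overexpression lay above both. Of the 8 markers 1 was called higher than both controls and none lower, against 6.13% and 8.14% of all tested genes. The part of the markers in the SLFN11 differences was not tested. In the same line the 4 fibroblast markers summed to between 33.0 and 40.9 FPKM over all 12 libraries, the 5 immune markers to at most 0.589 FPKM. The fibroblast sum hid opposite moves. With knockdown 1 of the 4 was called higher and 1 lower than both controls, against 17.6% and 17.8% of all tested genes. With overexpression DCN (0.31, adjusted p = 0.00131) and THY1 (0.16, adjusted p = 0.0367) were called higher than the own control and PDGFRA lower (-0.20, adjusted p = 0.0275). The THY1 call was lost with scaling to a fixed sum (adjusted p = 0.104).

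SLFN13, which of the SLFN genes shares the most 50-base stretches with SLFN11, was read at a small percentage of the SLFN11 level. In SK-N-BE(2) it had 0.0146, 0.0217 and 0.0570 FPKM in knockdown, against 0.257, 0.223 and 0.217 FPKM in the knockdown control. It had 0.0482, 0.0525 and 0.0539 FPKM in overexpression, against 0.0815, 0.0612 and 0.0326 FPKM in the overexpression control. The knockdown control stood wholly above the other 3 groups, which overlapped one another. The knockdown mean was 7.48-fold lower than in its own control (-0.26 on the log2(FPKM + 1) scale), while against the overexpression control the groups overlapped (-0.04). Overexpression differed from its own control by -0.01 (adjusted p = 1 in a fit without the filter on low values, which called 9.27% of 43263 genes). SLFN13 was listed at 0 in all 12 SH-SY5Y libraries.

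Within SK-N-BE(2), SLFN13 amounted to between 0.760% and 4.12% of the SLFN11 FPKM of the same library, with a median of 2.11%. The group means were 2.39 ± 1.60% in knockdown and 2.23 ± 0.176% in its control, and 2.06 ± 0.466% in overexpression and 1.44 ± 0.599% in its control (SD, n = 3 each). Pearson's r between the genes on the log2(FPKM + 1) scale was 0.906 over the 12 libraries, which share their 4 groups, and it is given as a description. The annotated transcripts of the genes share 617 stretches of 50 bases, 9.69% of those of SLFN11 and 6.50% of those of SLFN13, so fragments of one gene can be counted for the other. Whether SLFN11 fragments make up part of the SLFN13 values was not tested, and the SLFN13 values are uncertain for this reason.

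**Figure D3:**
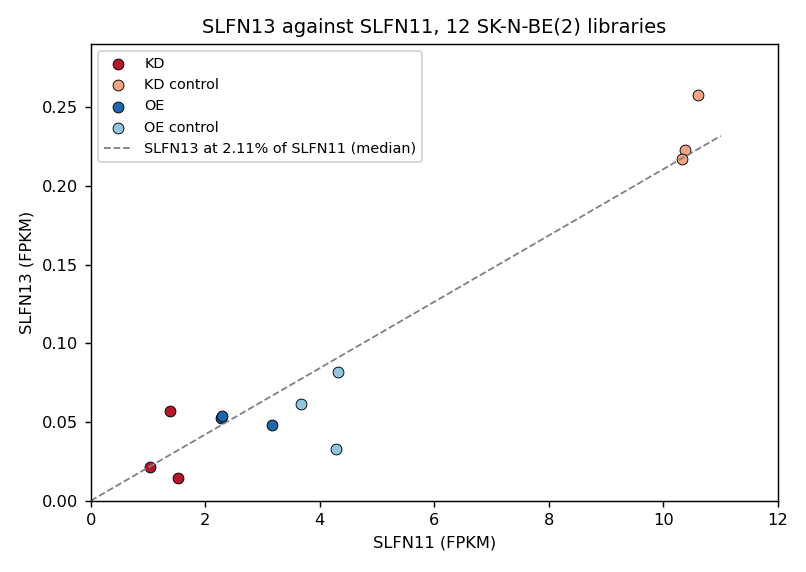
SLFN13 against SLFN11, both in FPKM on linear axes, in the 12 SK-N-BE(2) libraries, coloured by group (KD, knockdown; OE, overexpression). The dashed line marks SLFN13 at the median of 2.11% of SLFN11, and the 3 knockdown control libraries stand at the upper right, at 10.3 to 10.6 FPKM of SLFN11.

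SLFN5 differed in the opposite direction to SLFN11 in SK-N-BE(2) knockdown. It had 0.689, 0.309 and 0.433 FPKM in the knockdown libraries, against 0.0710, 0.0535 and 0.111 FPKM in the knockdown control and 0.127, 0.0679 and 0.0870 FPKM in the overexpression control. The knockdown libraries lay wholly above both controls, at a mean 6.07-fold above the knockdown control and 5.07-fold above the overexpression control (0.45 and 0.43 on the log2(FPKM + 1) scale). The 2 controls overlapped. With overexpression SLFN5 was listed at 0 in 2 libraries and at 0.0269 FPKM in the other, below every library of its own control, and the difference of -0.12 was not called (adjusted p = 0.366 in the fit without the filter). The overexpression libraries also lay below every knockdown control library (-0.10), given with no test. SLFN5 shares no stretch of 50 bases with another SLFN gene.

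In SH-SY5Y, SLFN5 had 0.439, 0.523 and 0.424 FPKM in knockdown, against 0.422, 0.282 and 0.281 FPKM in the knockdown control. The knockdown libraries lay wholly above these controls, by a small margin for 1 of them, and the difference of 0.14 (SE 0.0653) was not called (adjusted p = 0.147), in a fit that called 25.6% of genes. Against the overexpression control, with 0.0751, 0.0465 and 0.0860 FPKM, SLFN5 rose 6.68-fold with knockdown (0.45, adjusted p = 2.08e-05; 26.4% of genes called). The knockdown control was itself 4.74-fold above the overexpression control (0.31, adjusted p = 0.00235; 14.5% of genes called). SLFN5 was thus high in both groups that carried a knockdown vector of SH-SY5Y, hairpin or empty.

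With overexpression in SH-SY5Y, SLFN5 had 0.0955, 0.0490 and 0.0758 FPKM, which overlapped its own control (0.01, adjusted p = 1; 11.9% of genes called). It was 4.47-fold lower than in the knockdown control (-0.31, adjusted p = 0.00144; 23.9% of genes called). By group mean the order of SLFN5 ran from 0.477 ± 0.194 FPKM in SK-N-BE(2) knockdown and 0.462 ± 0.0535 FPKM in SH-SY5Y knockdown, which overlapped, to 0.328 ± 0.0812 FPKM in the SH-SY5Y knockdown control, with the other 5 groups at or below 0.0940 FPKM (SD, n = 3 each). All SLFN5 values were under 1 FPKM, and the log2(FPKM + 1) scale understates differences at such levels.

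SLFN12 was read in SH-SY5Y cells alone and was listed at 0 in all 12 SK-N-BE(2) libraries. It had 0.133, 0.0478 and 0.0856 FPKM in SH-SY5Y knockdown, against 0.174, 0.0494 and 0.0363 FPKM in the knockdown control, and these groups overlapped (0.00, adjusted p = 1). It was listed at 0 in 2 overexpression libraries and at 0.0242 FPKM in the other, against 0 in 2 overexpression control libraries and 0.0593 FPKM in the other. Knockdown was not called against the overexpression control (0.09, adjusted p = 0.0569). Overexpression was called lower than the knockdown control (-0.11, adjusted p = 0.0340), in a comparison that called 23.9% of genes. Without the knockdown control library at 0.174 FPKM this difference was -0.05. As for SLFN5, the group means were higher with a knockdown vector than with an overexpression vector, but single libraries overlapped and the controls themselves were not called apart (0.09, adjusted p = 0.11). These p-values come from the fit without the filter on low values. Its spread for SLFN12 was pooled with the 12 SK-N-BE(2) libraries at 0, so the p-values may be too small.

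PDE3A, the phosphodiesterase that holds SLFN12 in the presence of its ligands, was measured well above SLFN12. In SH-SY5Y it fell to 4.60 ± 0.556 FPKM in knockdown, against 8.65 ± 0.135 FPKM in the knockdown control (-0.79, adjusted p = 1.66e-06) and 5.69 ± 0.348 FPKM in the overexpression control (-0.26, adjusted p = 0.0363). In SK-N-BE(2) it had 5.20 ± 0.498 FPKM in knockdown, against 4.77 ± 0.366 FPKM in the knockdown control (0.10, adjusted p = 0.421) and 1.06 ± 0.147 FPKM in the overexpression control (1.59, adjusted p = 1.21e-10). It rose with SK-N-BE(2) overexpression to 2.06 ± 0.555 FPKM, against 1.06 ± 0.147 FPKM in its control (0.56, adjusted p = 0.000604; SD, n = 3 each), and was lower than in the knockdown control (-0.93, adjusted p = 8.4e-07), so that its direction depended on the control. Against the own control, PDE3B, the sister enzyme of PDE3A, rose in SH-SY5Y knockdown (0.24, adjusted p = 0.0052), a call lost with scaling to a fixed sum (adjusted p = 0.0786), and fell in SK-N-BE(2) knockdown (-0.48, adjusted p = 4.76e-06).

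Only 1 of the 4 genes, SLFN11, passed the filter of 1 FPKM in 3 libraries. The other SLFN genes in the table stayed under 1 FPKM. SLFN12L and SLFN14, both of the cluster, were above 0 in 2 libraries each, at most at 0.0134 and 0.0316 FPKM. SLFNL1, a more distant relative on chromosome 1, and its antisense gene SLFNL1-AS1 were above 0 in all 24 libraries, at most at 0.318 and 0.614 FPKM.

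Of 72 annotated genes within 500 kb of the cluster, 14 were tested, and none had a difference as large as that of SLFN11 in SK-N-BE(2) knockdown. Since SLFN11 was picked for this fall, setting it beside its neighbours is a description and no test. Against the knockdown control 1 was called higher and 4 lower, against 27.4% and 28.3% of all tested genes. Against the overexpression control 3 were called higher and 1 lower, against 22.5% and 25.2%. LIG3, a DNA ligase, was called lower in both (-0.42, adjusted p = 8.26e-05, and -0.26, adjusted p = 0.00701). RASL10B, a small GTPase gene, had the largest difference from the knockdown control (-0.54, adjusted p = 3.25e-06), and 0.07 from the overexpression control (adjusted p = 0.454). AP2B1, an adaptor subunit of clathrin coats and the nearest called neighbour, had -0.29 (adjusted p = 0.000156) and -0.02 (adjusted p = 0.772).

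In SH-SY5Y knockdown 4 of the 14 neighbours were called higher and 5 lower than the knockdown control, against 26.3% and 29.6% of all tested genes. CCL5, a chemokine induced by interferon and NF-kappaB, rose to 4.29 ± 0.423 FPKM in knockdown, against 1.62 ± 0.0940 FPKM in the knockdown control (1.01, adjusted p = 2.37e-08) and 0.190 ± 0.195 FPKM in the overexpression control (2.16, adjusted p = 1.17e-13; SD, n = 3 each). It was listed at 0 in SK-N-BE(2) knockdown and had a mean of 0.0416 FPKM in its control. Such groups add little to the pooled spread, so the CCL5 p-values may be too small.

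**Figure D4:**
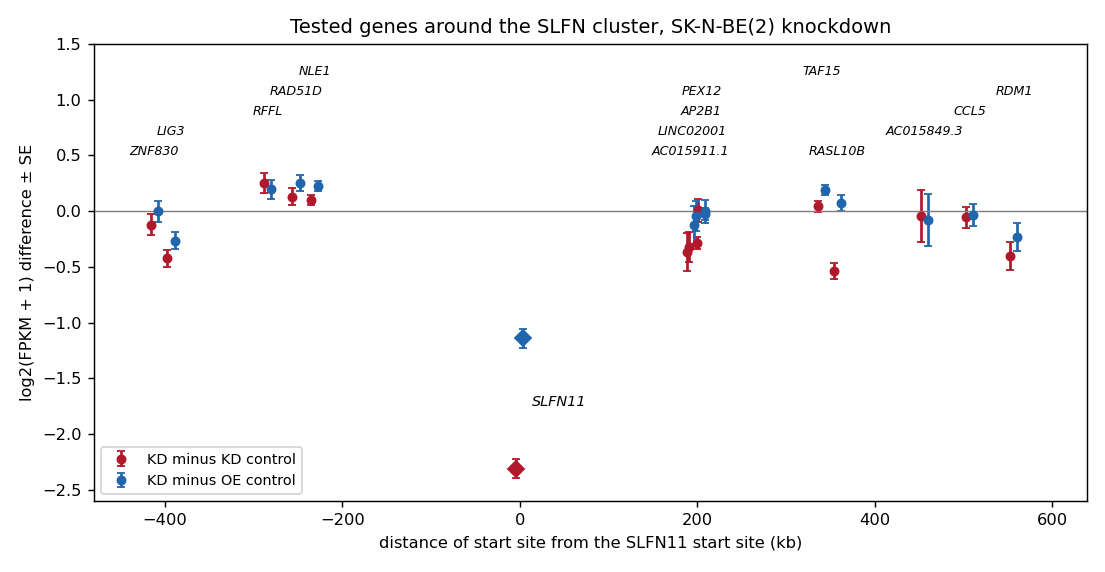
Differences in log2(FPKM + 1) with standard errors for the 14 tested genes within 500 kb of the SLFN cluster and for SLFN11 (diamonds), in SK-N-BE(2) knockdown (KD) against both empty vector controls, by distance of the start site from that of SLFN11 in kb. The neighbours lie between -0.54 and 0.25, and SLFN11, which was picked for its fall, lies at -2.31 and -1.14.

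Genes induced by interferon were followed because SLFN genes belong to this response. Of 40 listed genes, 22 were tested. In SH-SY5Y knockdown 16 were called higher and 2 lower than the knockdown control, with a median difference of 0.74, and 16 higher and 1 lower than the overexpression control, with a median of 1.06. The median of all tested genes was -0.01 and -0.03 in these comparisons, which called 26.3% and 26.5% of all tested genes higher. Against the knockdown control 47% of all calls were higher, and 35.4% with scaling to a fixed sum, which gave 15 of the 22 genes higher and 2 lower. SAMD9L, an antiviral restriction factor, rose to 3.67 ± 0.406 FPKM in knockdown, against 0.611 ± 0.121 FPKM in its control (1.54, adjusted p = 1.34e-13; SD, n = 3 each). Its paralogue SAMD9 and IFIT3, which binds foreign RNA in a complex with IFIT1, rose by 1.02 and 1.10 (adjusted p = 2.2e-11 and 8.48e-12). IFITM3, which blocks virus entry, rose to 11.5 ± 0.251 FPKM, against 2.43 ± 0.501 FPKM in its control (1.88, adjusted p = 3.03e-10). OAS3, which makes the activator of RNase L, fell (-0.57, adjusted p = 4.39e-07). A gene could be tested through 3 libraries of 1 group alone, and the SAMD9L mean was under 1 FPKM in the knockdown control. How far this filter shaped the counts of higher genes was not tested. The empty knockdown vector alone had 13 of the 22 genes called higher and none lower than the empty overexpression vector, with a median of 0.42, against 18.4% and 17.8% of all tested genes. In SH-SY5Y overexpression 1 was called higher and 3 lower than the own control, against 15.4% and 17.2% of all tested genes, and none higher and 15 lower than the knockdown control, against 26.5% and 28.9%.

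In SK-N-BE(2) knockdown 11 of the 22 interferon-induced genes were called higher and 3 lower than the knockdown control (median 0.26), and 16 higher and 2 lower than the overexpression control (median 0.30). The shares of all tested genes called higher were 27.4% and 22.5%. IFITM3 rose to 6.76 ± 0.772 FPKM, against 1.40 ± 0.278 FPKM in the knockdown control (1.69, adjusted p = 1.9e-09; SD, n = 3 each), and SAMD9 rose by 0.56 (adjusted p = 2.21e-07). OAS3 fell against the knockdown control (-0.91, adjusted p = 6e-10) and rose against the overexpression control (0.24, adjusted p = 0.00663). With overexpression 2 of the 22 were called higher and 1 lower than the own control, against 12.9% and 16.8% of all tested genes: OAS3 (0.38, adjusted p = 0.000457) and IFI6 (0.67, adjusted p = 0.00422) rose, and the RNA-activated kinase gene EIF2AK2 fell (-0.37, adjusted p = 0.00879). Against the knockdown control 3 were called higher and 7 lower with overexpression, against 20.3% and 20% of all tested genes, and OAS3 was lower (-0.77, adjusted p = 3.69e-08). In the knockdown libraries SLFN11 and SLFN13 were lower and SLFN5 higher than in the own control.

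The interferon receptor and STAT list had 17 tested members. In SK-N-BE(2) knockdown 7 were called higher and 2 lower than the knockdown control, against 27.4% and 28.3% of all tested genes, and 7 higher and 3 lower than the overexpression control, against 22.5% and 25.2%. The kinase JAK1 rose by 0.75 (adjusted p = 5.82e-09) and the receptor chain IFNGR1 by 0.80 (adjusted p = 4.29e-08), and the receptor chain IFNGR2 fell (-0.83, adjusted p = 3.1e-08), each against the knockdown control. In SK-N-BE(2) overexpression none was called higher and 8 were called lower than the own control, against 12.9% and 16.8% of all tested genes. Scaling by the median of ratios gave none higher and 5 lower, and against the knockdown control 2 were called higher and 4 lower, against 20.3% and 20%. Lower than the own control were the repressor IRF2 (-0.55, adjusted p = 4.03e-05), the receptor chain IFNAR1 (-0.24, adjusted p = 0.00256) and the kinase JAK2 (-0.28, adjusted p = 0.0157). JAK2 was not called against the knockdown control (0.07, adjusted p = 0.566). In SH-SY5Y knockdown 10 were called higher and 2 lower than the own control, against 26.3% and 29.6% of all tested genes, and the transcription factor IRF1 (0.92, adjusted p = 7.29e-10), IFNAR1 (0.60, adjusted p = 7.32e-09) and the kinase TYK2 (0.32, adjusted p = 1.54e-05) rose.

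Among 13 tested ETS transcription factors, 5 were called higher and 3 lower in SK-N-BE(2) knockdown than in the knockdown control, against 27.4% and 28.3% of all tested genes, and 8 higher and none lower than in the overexpression control, against 22.5% and 25.2%. ETV5, a target of the MAP kinase pathway, rose to 24.8 ± 2.71 FPKM in knockdown, against 6.39 ± 0.342 FPKM in the knockdown control (1.80, adjusted p = 1.37e-14) and 7.82 ± 0.275 FPKM in the overexpression control (1.54, adjusted p = 1.98e-13; SD, n = 3 each). ETV1 fell by 0.51 (adjusted p = 1.39e-07) and GABPA by 0.47 (adjusted p = 9.45e-07) against the knockdown control, and neither was called against the overexpression control (-0.08, adjusted p = 0.267, and 0.01, adjusted p = 0.946). In SK-N-BE(2) overexpression 4 were called higher and 1 lower than the own control, against 12.9% and 16.8% of all tested genes, with rises of ETV4 (0.50, adjusted p = 4.68e-05), ETS2 (0.28, adjusted p = 0.000782) and ETS1 (0.28, adjusted p = 0.00179). Against the knockdown control 4 were called higher and 6 lower, against 20.3% and 20% of all tested genes, and ETS1 was lower (-0.18, adjusted p = 0.0205). In SH-SY5Y knockdown 7 were called higher and none lower than the own control, against 26.3% and 29.6% of all tested genes, among them ELK3 (0.92, adjusted p = 3.06e-10), ETS2 (0.72, adjusted p = 5.64e-10) and ETV5 (0.56, adjusted p = 3.29e-07). FLI1, the ETS factor tied to SLFN11 in Ewing sarcoma, had its highest group mean in SH-SY5Y knockdown, at 0.142 ± 0.0410 FPKM, and was not tested.

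All 16 chromatin repressors on the list were tested. In SK-N-BE(2) knockdown 5 were called higher and 8 lower than the knockdown control, against 27.4% and 28.3% of all tested genes, and 1 higher and 9 lower than the overexpression control, against 22.5% and 25.2%. DNMT1, the maintenance DNA methyltransferase, fell to 16.4 ± 0.176 FPKM in knockdown, against 22.2 ± 1.01 FPKM in the knockdown control (-0.41, adjusted p = 1.02e-07), and was not called against the 17.3 ± 0.392 FPKM of the overexpression control (-0.07, adjusted p = 0.202; SD, n = 3 each). The histone H3 lysine 9 methyltransferase EHMT2 fell against both (-0.40, adjusted p = 2.68e-07, and -0.49, adjusted p = 2.32e-08), and the histone-binding RBBP4 rose against the knockdown control (0.24, adjusted p = 8.5e-07) and was not called against the overexpression control (-0.05, adjusted p = 0.133). EZH2 rose against the knockdown control (0.17, adjusted p = 7.36e-05) and fell against the overexpression control (-0.14, adjusted p = 0.000678), so its direction depended on the control. In SK-N-BE(2) overexpression 1 was called higher and 5 lower than the own control, against 12.9% and 16.8% of all tested genes, but 5 higher and 1 lower than the knockdown control, against 20.3% and 20%. Against the own control EZH2 and the de novo DNA methyltransferase DNMT3A fell (-0.24, adjusted p = 1.07e-05, and -0.24, adjusted p = 0.000673), and SUZ12 of the EZH2 complex rose (0.16, adjusted p = 0.0234), a call lost with scaling to a fixed sum (adjusted p = 0.138). None of these 3 genes was called against the knockdown control (EZH2 0.07, adjusted p = 0.0838; DNMT3A -0.10, adjusted p = 0.0872; SUZ12 -0.11, adjusted p = 0.0928). Scaling by the median of ratios gave 3 higher and 2 lower than the own control. In SH-SY5Y knockdown none was called higher and 10 lower than the own control, against 26.3% and 29.6% of all tested genes, with DNMT3B at -0.92 (adjusted p = 5.05e-11), EZH2 at -0.42 (adjusted p = 2.64e-10) and DNMT1 at -0.57 (adjusted p = 7.29e-10).

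**Figure D5:**
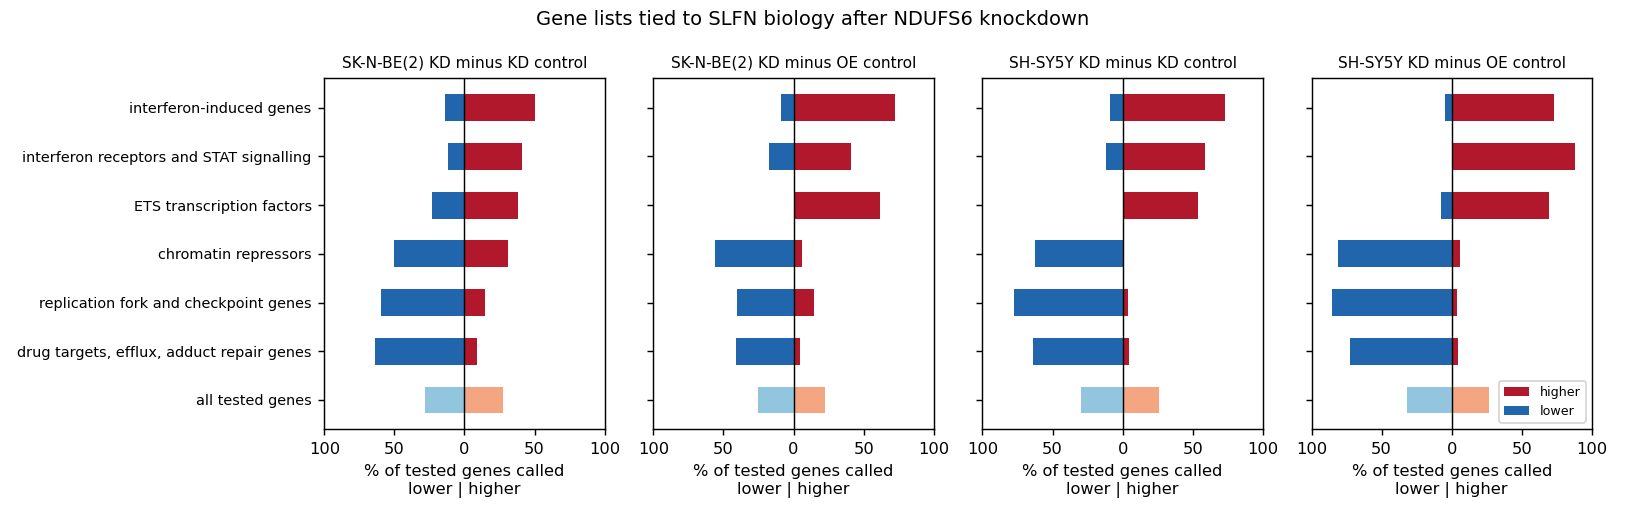
Percentage of the tested members of 6 gene lists called higher (red, right) or lower (blue, left) after NDUFS6 knockdown (KD) against the knockdown control and the overexpression (OE) control in each line, with the same percentages for all tested genes in the bottom row. In SH-SY5Y, 72.7% of the interferon-induced genes were called higher and 77.8% of the replication fork genes lower than in the knockdown control, against 26.3% and 29.6% of all tested genes.

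Replication fork and checkpoint genes, which include the known partners of SLFN11, formed a list of 27, all tested. In SK-N-BE(2) knockdown 4 were called higher and 16 lower than the knockdown control (median -0.23), against 27.4% and 28.3% of all tested genes, and 4 higher and 11 lower than the overexpression control (median -0.14), against 22.5% and 25.2%. Scaled to a fixed sum per library, the first of these counts became 7 higher and 11 lower. RPA1, the replication protein A subunit that binds SLFN11, fell to 13.1 ± 0.179 FPKM, against 15.9 ± 0.211 FPKM in the knockdown control (-0.26, adjusted p = 9.94e-05) and 16.0 ± 0.433 FPKM in the overexpression control (-0.27, adjusted p = 9.42e-05; SD, n = 3 each). RPA3 fell by 0.59 against the knockdown control (adjusted p = 1.24e-05) and by 0.31 against the overexpression control (adjusted p = 0.00796), and RPA2 was called in neither (0.12, adjusted p = 0.124, and -0.10, adjusted p = 0.213). DDB1, the ubiquitin ligase adaptor that SLFN11 recruits, fell against both (-0.38, adjusted p = 1.30e-09, and -0.52, adjusted p = 2.27e-11), and MCM5 and MCM6 of the replicative helicase rose against the knockdown control (0.62 and 0.52, adjusted p = 2.11e-10 and 3.34e-10). Against the overexpression control MCM5 rose by 0.24 (adjusted p = 0.000124), and MCM6 had -0.08 (adjusted p = 0.0691).

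With overexpression, the same list had 3 genes called higher and 11 lower in SK-N-BE(2) and 18 higher and 1 lower in SH-SY5Y, each against the own control. All tested genes had 12.9% higher and 16.8% lower in SK-N-BE(2) and 15.4% and 17.2% in SH-SY5Y. Against the own control MCM6 fell in SK-N-BE(2) (-0.33, adjusted p = 4.23e-06) and rose in SH-SY5Y (0.33, adjusted p = 1.54e-06). Against the knockdown control it rose in both lines, by 0.28 in SK-N-BE(2) (adjusted p = 7.47e-06) and 1.25 in SH-SY5Y (adjusted p = 2.15e-15). MCM5 fell by 0.29 (adjusted p = 8.33e-05) and the checkpoint kinase CHEK2 rose by 0.37 (adjusted p = 0.000105) in SK-N-BE(2) against the own control, and neither was called against the knockdown control (0.10, adjusted p = 0.0824, and 0.07, adjusted p = 0.367). Against the own control RPA1 was not called in SK-N-BE(2) overexpression (0.11, adjusted p = 0.0955), RPA2 fell (-0.20, adjusted p = 0.0288) and RPA3 rose (0.41, adjusted p = 0.00231). The knockdown control itself differed from the overexpression control by -0.23 in RPA2 and 0.29 in RPA3. The RPA2 and RPA3 calls therefore hold for the own control, and RPA3 was not called higher than both. Of the 27 genes, 3 were called higher and 19 lower in the test of the difference between the lines, which called 18.3% of all tested genes higher and 18.5% lower. In SH-SY5Y knockdown 1 was called higher and 21 lower than the own control, against 26.3% and 29.6% of all tested genes, and 1 higher and 23 lower than the overexpression control, against 26.5% and 31.7% of all tested genes. Against the own control RPA1 had -0.33 (adjusted p = 5.39e-06), RPA2 -0.23 (adjusted p = 0.00618) and RPA3 -1.10 (adjusted p = 1.94e-09). The helicase component CDC45 fell by 0.80 (adjusted p = 1.88e-11) and CHEK2 by 0.77 (adjusted p = 3.6e-10), and the ligase scaffold CUL4A rose (0.48, adjusted p = 1.69e-09).

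The last list held 23 drug targets, transporters and repair genes for the lesions whose outcome SLFN11 affects, of which 22 were tested. In SK-N-BE(2) knockdown 2 were called higher and 14 lower than the knockdown control, against 27.4% and 28.3% of all tested genes, and 1 higher and 9 lower than the overexpression control, against 22.5% and 25.2%. Scaled to a fixed sum, the first count became 5 higher and 10 lower. TOP2A, the target of etoposide and doxorubicin, fell to 98.7 ± 8.68 FPKM, against 209 ± 2.18 FPKM in the knockdown control (-1.08, adjusted p = 1.67e-11) and 114 ± 3.84 FPKM in the overexpression control (-0.21, adjusted p = 0.00961). The nucleoside transporter SLC29A1 fell by 0.69 (adjusted p = 2.26e-10) and XRCC5, the Ku80 subunit of end joining, by 0.46 (adjusted p = 2.77e-10) against the knockdown control. PARP1, the target of PARP inhibitors, fell to 62.1 ± 1.83 FPKM, against 84.0 ± 2.02 FPKM in the knockdown control (-0.43, adjusted p = 7.31e-10) and 83.9 ± 2.22 FPKM in the overexpression control (-0.43, adjusted p = 1.1e-09). ABCB1, the efflux pump P-glycoprotein, rose to 1.93 ± 0.115 FPKM, against 0.803 ± 0.113 FPKM in the knockdown control (0.70, adjusted p = 7.28e-10) and 0.535 ± 0.127 FPKM in the overexpression control (0.94, adjusted p = 1.39e-11; SD, n = 3 each). With SK-N-BE(2) overexpression 4 were called higher and 7 lower than the own control, against 12.9% and 16.8% of all tested genes, TOP2B, TOP1 and RRM2 among the lower (-0.31, -0.22 and -0.25, adjusted p = 7.09e-07, 0.000484 and 0.00138). Scaled to a fixed sum, 4 were called higher and 11 lower. None of the 22 was called higher than both controls and 5 were called lower than both, against 6.13% and 8.14% of all tested genes. TOP2B was higher than in the knockdown control (0.16, adjusted p = 0.000217), so that its direction depended on the control. No drug response was measured in these libraries.

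In SH-SY5Y knockdown, 1 gene of the drug list was called higher and 14 lower than the own control, against 26.3% and 29.6% of all tested genes. TOP2A fell by 1.53 (adjusted p = 5.47e-14), PARP1 by 0.56 (adjusted p = 9.89e-12) and TOP2B by 0.51 (adjusted p = 1.15e-11), and ABCB1 fell to 19.6 ± 0.730 FPKM, against 32.8 ± 0.196 FPKM (-0.71, adjusted p = 4.43e-10; SD, n = 3 each), the other direction from SK-N-BE(2). Fibroblast markers moved in these libraries as well, with sums of 55.9 to 56.2 FPKM in SH-SY5Y knockdown, against 33.3 to 35.6 FPKM in its control, and all 4 were called higher. The neuroblastoma markers summed to 601 to 624 FPKM in SH-SY5Y knockdown, against 803 to 813 FPKM in the knockdown control and 1086 to 1118 FPKM in the overexpression control, and 3 of the 8 were called higher and 4 lower than the knockdown control. Their part in the list counts was not tested.

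The genes most like SLFN11 across the 24 libraries, after the mean of each line was subtracted, were ZNF117 (Pearson's r 0.948), UBE2G2 (0.945), GACAT3 (0.936), CHSY3 (0.934), MT-TA (0.926) and ANGPT2 (0.919), out of 15902 genes. The likeness rests on the 12 SK-N-BE(2) libraries, which share their 4 groups, since SLFN11 hardly varied in SH-SY5Y. The widest SLFN11 gap there, between knockdown and the knockdown control, is the one that picked the gene, so the ranking is a description. None of the 6 was among the first 6 by Spearman's rho. UBE2G2, a ubiquitin-conjugating enzyme, had 10.9 ± 0.222 FPKM in SK-N-BE(2) knockdown and 17.4 ± 0.529 FPKM in its control, and 12.9 ± 0.374 FPKM in overexpression and 13.5 ± 0.131 FPKM in its control. CHSY3, a chondroitin synthase, had 0.190 ± 0.0435 FPKM in knockdown and 3.16 ± 0.371 FPKM in its control, but 1.28 ± 0.129 FPKM in overexpression and 1.08 ± 0.0723 FPKM in its control. MT-TA is a mitochondrial transfer RNA, and such short RNAs are uncertain in FPKM. The genes most opposed were BMP5 (-0.950), DLX3 (-0.947) and PEA15 (-0.937). BMP5, a bone morphogenetic protein, had 11.7 ± 0.122 FPKM in SK-N-BE(2) knockdown and 3.43 ± 0.456 FPKM in its control, and 6.96 ± 0.121 FPKM in overexpression and 5.19 ± 0.383 FPKM in its control (SD, n = 3 each), and its highest group mean in SH-SY5Y was 0.00625 FPKM.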

How the data were processed

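RNA had been measured in 24 libraries of 8 groups. Per the labels' protocols, total RNA was extracted with TRIzol and TruSeq libraries that keep the strand were sequenced by Illumina NovaSeq. Per the submitters' processing notes, the tools were FastQC 0.11.2, StringTie 1.3.1c and STAR, with the build hg38, and no settings were at hand. The authors deposited FPKM per gene. No counts were among the values used, so depth is unknown and no counting interval is given; the spread between 3 libraries is the only measure of precision.

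Values were taken as log2(FPKM + 1), with the pseudocount of 1 stated in each scale, which understates differences of low genes. limma 3.58.1 in R 4.3.3, with the data.table package (version 1.17.8), fitted the 8 groups over all 24 libraries, using its trend and robust options and leaving 16 residual degrees of freedom. A gene was tested if 3 or more libraries had 1 FPKM or more (15903 genes), and p-values, two-sided, were adjusted by Benjamini-Hochberg over all of them. A call is an adjusted p under 0.05. Counts over all genes and lists leave out NDUFS6. SLFN5, SLFN12 and SLFN13 did not pass the filter, so their p-values come from a fit without it (43264 genes). The procedure was tested on simulated data.

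The members and lists were chosen with earlier results of these data known. Named were the 4 members, other SLFN genes, neighbours within 500 kb with the largest changes, the 3 members of each list with the smallest adjusted p (SK-N-BE(2) knockdown, SK-N-BE(2) overexpression and SH-SY5Y knockdown, each against the own control), apart from results that are not reported here, RPA1, RPA2, RPA3 and PDE3A, and the 6 genes most and 3 least like SLFN11. AP2B1, IFITM3, OAS3, EZH2, DNMT1, EHMT2, ETV5, DDB1, MCM5, MCM6, TOP2A, ABCB1, PARP1, DBH and FLI1 are also given outside the rule, chosen after their values were seen, as are the values of several named genes against the other control. GATA3, HAND2, PHOX2A and CHGA were likewise named after their values were seen. Neighbours came from the GENCODE 29 annotation, and the interferon, STAT, ETS, chromatin, replication fork, drug, SLFN12 partner and cell marker lists were matched by symbol. Alternatives were a pseudocount of 0.1, no filter, a mean of at least 5 FPKM, rescaling as TPM (a fixed sum) or by the median of ratios, a fit of the groups compared alone, the replicate number as a block, and each library left out.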

Additional observations from a re-analysis of the deposited data

Results flagged for a closer look

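The overexpression difference of SLFN11 in SK-N-BE(2) minus that in SH-SY5Y was -0.519 on the log2(FPKM + 1) scale and drew attention as a difference between the lines. SLFN11 was lower in 3 of 3 SK-N-BE(2) overexpression libraries than in every library of the own control, and it was listed at 0 in 10 of 12 SH-SY5Y libraries. With no room to fall in SH-SY5Y, the value restates the SK-N-BE(2) difference and is no test of a different response.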

How the results depend on the processing

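The 4 SK-N-BE(2) differences of SLFN11 with a construct kept their sign under all 12 alternatives each. Small differences did change sign when 1 library was left out: SLFN11 in SH-SY5Y overexpression against the knockdown control (-0.02 to 0.00), SLFN12 in SH-SY5Y knockdown (-0.03 to 0.06) and overexpression (-0.03 to 0.01) and SLFN13 in SK-N-BE(2) overexpression (-0.03 to 0.01) and SLFN5 in SH-SY5Y overexpression (-0.01 to 0.02), each against the own control, and SLFN5 between the SK-N-BE(2) controls (-0.04 to 0.00). The difference of SLFN11 in SK-N-BE(2), on the log2 scale, grew with a pseudocount of 0.1 to -2.92 (knockdown minus knockdown control), -1.58 (knockdown minus overexpression control), -1.99 (overexpression minus knockdown control) and 1.33 (knockdown control minus overexpression control), and with TPM scaling to -2.68 and -1.49 for knockdown against the knockdown and overexpression controls. Overexpression minus its control (-0.51) was not called when these groups were fitted alone (adjusted p = 0.0526). That fit had fewer samples and left out the SH-SY5Y libraries at or near 0. SLFN11 could not be tested with a mean of at least 5 FPKM. That limit tested 7219 genes in place of 15903. The genes called were then 4843, 4268, 3823 and 3230 in SK-N-BE(2) (knockdown against both controls, overexpression against the knockdown control, controls), 4592, 4842, 2885, 4541 and 3207 in SH-SY5Y (knockdown against both controls, overexpression against its own and the other control, controls), 5515 and 5503 between the lines (knockdown and overexpression controls), and 4573 and 3374 in the interactions (knockdown and overexpression). Fitting only the groups compared called 966 genes for SK-N-BE(2) overexpression against its own control, against 4715 with all groups, and 4070 against the knockdown control, against 6405. Leaving out 1 library gave 2754 to 6196 calls for SK-N-BE(2) overexpression against its own control, 2754 without overexpression replicate 2 and 3082 without control replicate 3. The numbers did not pair the libraries: the correlations of deviations of same-numbered libraries lay between -0.076 and 0.370, and 2 of 12 pairs matched best. With the replicate block SLFN11 overexpression kept its difference of -0.51 (adjusted p = 0.000174), and the block moved no count of calls by over 1.5 times.

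With TPM scaling the median of all genes moved by over 0.1 in the knockdown interaction, to 0.20, against 0.01 as reported. In 4 other comparisons it moved by less and came to -0.11 between the SK-N-BE(2) controls, -0.10 and -0.12 for SH-SY5Y knockdown against the knockdown and overexpression controls, and -0.17 between the lines' knockdown controls. The share of higher calls was then 60.8% (49.3% as reported) for SK-N-BE(2) knockdown against its own control, 32.7% (43.4%) for overexpression against its own control, 62.6% (50.4%) against the knockdown control, 25.1% (45.1%) between the controls, 35.4% (47%) for SH-SY5Y knockdown against its own control, 69.8% (52.8%) in the knockdown interaction and 38.3% (49.8%) in the overexpression interaction; median-of-ratios scaling gave 53.8% for SK-N-BE(2) overexpression. At levels under 1 FPKM, as for SLFN5, SLFN12 and SLFN13, the spread between libraries limits what can be told apart.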
